A study of Euphorbia esula with 15 samples.

Results

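The genes described here are the mitotic B-type cyclins and the B-type cyclin-dependent kinases of leafy spurge (Euphorbia esula) crown buds. They were chosen by name as 10 Arabidopsis genes. The 6 cyclins were CYCB1;1 (AT4G37490), CYCB1;2 (AT5G06150), CYCB1;4 (AT2G26760), CYCB2;1 (AT2G17620), CYCB2;3 (AT1G20610) and CYCB2;4 (AT1G76310). The 4 kinases were CDKB1;1 (AT3G54180), CDKB1;2 (AT2G38620), CDKB2;1 (AT1G76540) and CDKB2;2 (AT1G20930). A contig of the leafy spurge assembly belonged to the group when its best Arabidopsis protein hit was 1 of these 10. There were 73 such contigs among 569227, and they lay in 26 of 223732 components, the assembler's groups of related contigs that stand for a gene. Of these 26 components, 7 had a mean normalized count above 5 at some time point and are described below.

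B-type cyclins bind and activate cyclin-dependent kinases as cells pass from G2 into mitosis, and their proteins are destroyed as mitosis ends. B-type kinases are specific to plants, where their transcripts are made mainly from S phase to mitosis. In Arabidopsis, MYB3R transcription factors act on the promoters of many of these genes, so their transcripts tend to rise together in dividing cells, and they are widely used as signs of cell division in buds that leave dormancy.

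Crown buds are underground adventitious buds that stay paradormant while the shoot is attached and grow out once it is removed. Plants of the biotype 1984-ND001, about 3 or 4 months old by the labels, were held at 27 °C with a 16 h photoperiod, received no glyphosate, and lost their aerial stems at soil level. Paradormant buds were taken at once (0 h, 3 libraries), and buds released from paradormancy 6 h, 24 h or 72 h later (4 libraries each), every replicate being a separate pool of plants harvested around noon. Poly A+ RNA was sequenced in 15 directional libraries on the same lane, and reads were assigned to contigs by RSEM.

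The depth of a library, its sum of expected counts, lay between 2569254 and 6649334 in 0 h buds, between 2589107 and 7981890 in 6 h buds, between 3750902 and 8766393 in 24 h buds and between 1847115 and 7253556 in 72 h buds. Each count was scaled by its library's median-of-ratios size factor and is then called a normalized count. Normalized counts do not take contig length into account, so levels are compared between time points and not between genes. A component was called when the adjusted p of edgeR's quasi-likelihood test, corrected over 27028 features, was below 0.05. The tissue was checked against marker lists. Of 12 shoot meristem and young leaf markers 9 had counts, while WUS, CLV3 and FIL were at 0. All 8 vascular markers had a mean above 5 at some time point. Of 5 root meristem markers only SCR and SHR did, while PLT1 was at 0, WOX5 averaged 0.27 or less and PLT2 2.61 to 3.42. In whole buds, fewer cells of a type and less RNA per cell cannot be told apart.

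The 7 components covered 6 of the 10 Arabidopsis genes. CDKB2;2 was the hit of comp100223_c0 (the CDKB2 component below) and CDKB1;2 the hit of comp97692_c0 (the CDKB1 component). The CYCB2 component, comp107205_c0, joined a contig with the hit CYCB2;4, which carried 80.7% of its counts, and another with the hit CYCB2;3. CYCB1;2 was the hit of comp112579_c0 and comp78653_c0, and CYCB1;4 the hit of comp103914_c0 and comp135865_c1. BLAST E values to the Arabidopsis protein were 1e-149 or lower for the CDKB2, CDKB1 and CYCB2 components, 7e-137 for comp112579_c0 and 6e-60 for comp103914_c0. They were weaker for comp78653_c0, a lone contig without an open reading frame (3e-12), and for comp135865_c1, where 29 of 42 contigs had the hit with E values between 2e-51 and 4e-13.

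The remaining 19 components held 26 expected counts in total, and 9 of them held none. The deposited annotation placed the best hit of 10 of them outside plants (Metazoa or Protista), so these are not shown to be leafy spurge genes, while all 7 components that passed were placed in Viridiplantae. Their highest mean at any time point was 0.982 normalized counts. Just inside the filter stood comp78653_c0, with means of 8.44 to 24.3. No component with the hit CYCB1;1, CYCB2;1, CDKB1;1 or CDKB2;1 passed. All contigs with the hit CYCB1;1, CDKB1;1 or CDKB2;1 were among those placed outside plants, so their counts say nothing of plant copies of these genes. The contig with the hit CYCB1;1 had no count in any library, which allows up to 3 counts per library, or 1.35 to 7.09 normalized counts depending on depth. Because RSEM divides reads between contigs of like sequence, a standard error here leaves out the uncertainty of that division for close copies. All 7 components that passed had means above 5 at every time point.

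Transcript abundance of 6 of the 7 components was highest at 72 h, and the exception, comp135865_c1, was highest at 24 h. Between 6 h and 24 h both kinases fell, to 0.378 and 0.391 of their 6 h level in the CDKB2 and CDKB1 components, and at 72 h they stood at 4.53-fold and 4.15-fold of their 24 h level. The cyclin components other than comp135865_c1 stood at 1.02-fold to 1.69-fold of their 0 h level at 24 h, which was not called, and rose to 2.40-fold to 3.25-fold of it at 72 h. Differences among the 4 time points were called in 7 of 7 components, where 46.7% of all features were called.

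**Figure D1:**
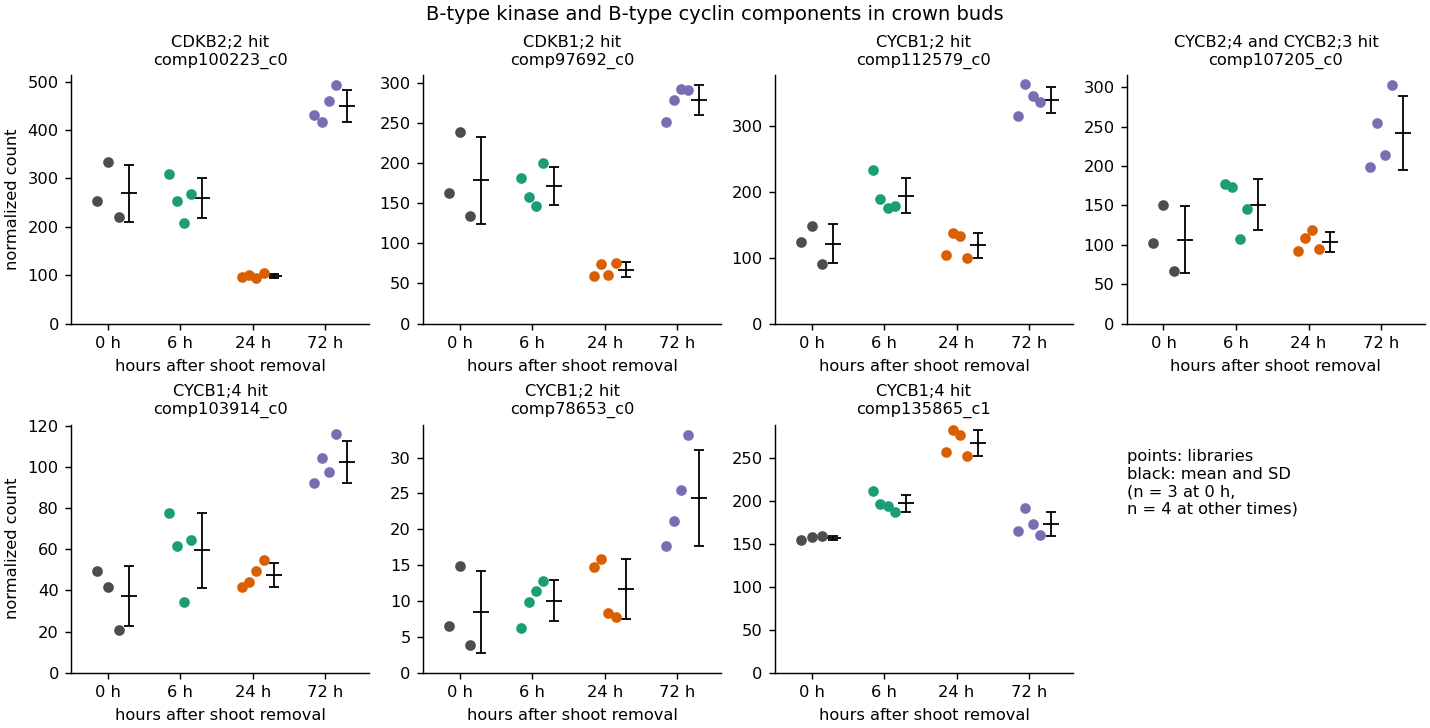
Normalized counts (vertical axes, each starting at 0) of the 7 components in every library against the hours after shoot removal (0, 6, 24 and 72 h), as points, with the mean and SD in black (n = 3 at 0 h, n = 4 at other times). The kinases sit lowest at 24 h and highest at 72 h, while comp135865_c1 sits highest at 24 h (251.9 to 282.2).

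The CDKB2 component (AT1G20930) corresponds to a class of kinases that in Arabidopsis is needed for the passage from G2 to mitosis and for an ordered shoot meristem. Its normalized counts in 0 h buds were 254, 335 and 219, and in 6 h buds 309.7, 253, 209 and 269 (by replicate number, as in all such lists). The 24 h buds had 96.4, 101, 94.0 and 104, and the 72 h buds 432, 416, 459 and 493. The 0 h and 6 h libraries overlapped, all 24 h libraries lay below every other library, and all 72 h libraries lay above.

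Means ± SD of the CDKB2 component were 269 ± 59.3 in 0 h buds (n = 3), 260.1 ± 41.7 in 6 h buds, 98.8 ± 4.4 in 24 h buds and 449.9 ± 33.6 in 72 h buds (n = 4 each). The log2 fold change was -1.42 ± 0.13 (SE) at 24 h against 0 h (edgeR adjusted p = 7.45e-08) and 0.76 ± 0.13 at 72 h against 0 h (edgeR adjusted p = 0.000474). At 72 h against 24 h it was 2.18 ± 0.12 (edgeR adjusted p = 6.9e-11). The replicates differed least at 24 h, with a coefficient of variation of 4.5%, against 7.5% at 72 h and 16.0% or more at 0 h and 6 h.

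The CDKB1 component (AT2G38620) corresponds to a class of kinases that in Arabidopsis act at G2 to mitosis and in the divisions that form stomata. Its normalized counts in 0 h buds were 163, 239 and 134, and in 6 h buds 181, 158, 147 and 199.8. The 24 h buds had 59.0, 74.1, 60.5 and 75.9, and the 72 h buds 251, 278, 292 and 291. As in the CDKB2 component, the 24 h libraries lay below and the 72 h libraries above all others, and 0 h and 6 h overlapped.

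The CDKB1 means were 179 ± 54.0 in 0 h buds (SD, n = 3), 171 ± 23.7 in 6 h buds, 67.4 ± 8.8 in 24 h buds and 278 ± 18.8 in 72 h buds (n = 4 each). The log2 fold change was -1.36 ± 0.16 (SE) at 24 h against 0 h (edgeR adjusted p = 1.24e-06), 0.69 ± 0.15 at 72 h against 0 h (edgeR adjusted p = 0.00513) and 2.05 ± 0.15 at 72 h against 24 h (edgeR adjusted p = 1.6e-09). At 6 h against 0 h neither kinase was called, with log2 fold changes of -0.01 ± 0.13 and -0.01 ± 0.15 and edgeR adjusted p of 0.972 and 0.986 in the CDKB2 and CDKB1 components. The 2 kinases were the members called lower at 24 h against 0 h, where 18.8% of all features were called lower. Neither kinase gained or lost a call under any of the alternatives tried. The CDKB1 call at 72 h against 0 h came close to the threshold. Its log2 fold change ranged from 0.51 to 0.91, and its highest adjusted p over the alternatives (edgeR, DESeq2 or limma) was 0.0496.

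Each kinase component held 2 contigs, and both contigs of each were lowest at 24 h. In the CDKB2 component the contig with 67.6% of the counts stood at 0.343 of its 0 h mean at 24 h, and the other at 0.430. In the CDKB1 component, with 54.2% and 45.8% of the counts, the ratios were 0.429 and 0.325. These contig ratios carry no test, because the division of reads between contigs of a component is estimated.

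**Figure D2:**
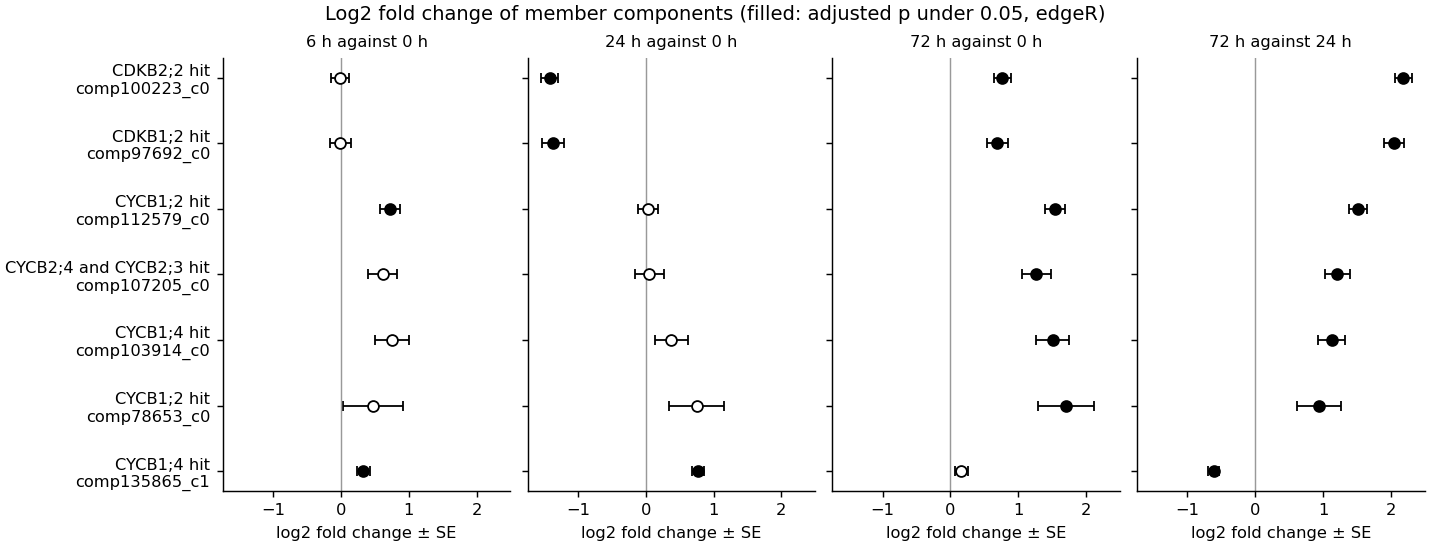
Log2 fold change with its SE (horizontal axis) of the 7 components at 6 h, 24 h and 72 h against 0 h and at 72 h against 24 h. Filled points have an edgeR adjusted p below 0.05. Both kinases lie to the left at 24 h against 0 h (-1.42 and -1.36), and 6 of 7 components lie to the right with filled points at 72 h against 0 h.

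Among the cyclins, comp112579_c0 (AT5G06150) had the stronger match of the 2 to CYCB1;2, a cyclin of the class that in Arabidopsis helps to organize the microtubules of mitosis. Its normalized counts in 0 h buds were 125, 149 and 90.5, and in 6 h buds 233, 189, 176 and 178. The 24 h buds had 104, 138, 132 and 100.4, and the 72 h buds 316, 363, 346 and 336. The 6 h libraries all lay above the 0 h and 24 h libraries, which overlapped, and the 72 h libraries lay above every other library.

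Its means were 121 ± 29.4 in 0 h buds (SD, n = 3), 194 ± 26.8 in 6 h buds, 119 ± 19.1 in 24 h buds and 340.4 ± 19.7 in 72 h buds (n = 4 each). The log2 fold change was 0.72 ± 0.15 (SE) at 6 h against 0 h (edgeR adjusted p = 0.00266) and -0.69 ± 0.13 at 24 h against 6 h (edgeR adjusted p = 0.0005). At 24 h against 0 h it was 0.03 ± 0.15 (edgeR adjusted p = 0.898) and at 72 h against 0 h 1.54 ± 0.15 (edgeR adjusted p = 1.05e-06). Its 2 contigs had unlike courses. The contig with 40.1% of the counts averaged 27.2, 69.0, 57.0 and 160.3 normalized counts at 0, 6, 24 and 72 h, and the contig with 59.9% averaged 94.2, 125, 61.7 and 180.1. The first thus stood at 2.10 times and the second at 0.655 times its 0 h mean at 24 h. The division between them was estimated by RSEM and was not tested.

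The CYCB2 component stood for AT1G76310 and AT1G20610, members of a class whose transcripts and proteins in Arabidopsis appear around G2 and mitosis. Its normalized counts in 0 h buds were 102, 151 and 66.9, and in 6 h buds 178, 173, 108 and 145. The 24 h buds had 92.5, 109, 119 and 94.8, and the 72 h buds 198, 255, 214 and 303.0. The 72 h libraries lay above all others, and the 0 h, 6 h and 24 h libraries overlapped.

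The CYCB2 means were 107 ± 42.2 in 0 h buds (SD, n = 3), 151 ± 32.3 in 6 h buds, 104 ± 12.5 in 24 h buds and 242 ± 46.9 in 72 h buds (n = 4 each). The component rose by a log2 fold change of 1.27 ± 0.21 (SE) at 72 h against 0 h (edgeR adjusted p = 0.000463) and 1.21 ± 0.18 at 72 h against 24 h (edgeR adjusted p = 2.19e-05). At 24 h against 6 h the log2 fold change was -0.56 ± 0.18 (edgeR adjusted p = 0.0269). That call was lost under limma (adjusted p = 0.0666) and without 6 h replicate 1 or 2 or 24 h replicate 1 or 4 (edgeR adjusted p of 0.0809, 0.11, 0.0651 and 0.0527). The contig with the hit CYCB2;3 averaged 20.3, 31.2, 13.5 and 62.5 normalized counts at 0, 6, 24 and 72 h, and that with the hit CYCB2;4 averaged 86.3, 120, 90.3 and 179.8.

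The 2 components with the hit CYCB1;4 (AT2G26760), another cyclin of the B1 class, had their highest counts at different time points. The normalized counts of comp103914_c0 were 49.4, 41.4 and 20.9 in 0 h buds, and in 6 h buds 77.7, 61.4, 34.3 and 64.2. The 24 h buds had 41.4, 44.3, 49.6 and 54.7, and the 72 h buds 92.3, 104, 97.3 and 116. The 72 h libraries lay above all others, and the earlier time points overlapped.

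The means of comp103914_c0 were 37.3 ± 14.7 in 0 h buds (SD, n = 3), 59.4 ± 18.2 in 6 h buds, 47.5 ± 5.9 in 24 h buds and 102 ± 10.2 in 72 h buds (n = 4 each). It rose at 72 h against 0 h by a log2 fold change of 1.51 ± 0.24 (SE, edgeR adjusted p = 0.000349) and at 72 h against 24 h by 1.13 ± 0.20 (edgeR adjusted p = 0.000167). Its log2 fold change at 24 h against 0 h was 0.38 ± 0.24 (edgeR adjusted p = 0.237), and it was called without 0 h replicate 1 (edgeR adjusted p = 0.048).

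In contrast, comp135865_c1 had its highest counts at 24 h. Its normalized counts were 155, 158 and 159 in 0 h buds, 211, 197, 194 and 187 in 6 h buds, 257, 282, 277 and 251.9 in 24 h buds, and 165, 192, 173 and 161 in 72 h buds. The 24 h libraries lay above all others, the 6 h libraries lay above the 0 h libraries, and the 72 h libraries also lay above 0 h but overlapped with 6 h.

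The means of comp135865_c1 were 157 ± 2.1 in 0 h buds (SD, n = 3), 197 ± 10.2 in 6 h buds, 267 ± 14.9 in 24 h buds and 173 ± 14.0 in 72 h buds (n = 4 each). The log2 fold change at 24 h against 0 h was 0.77 ± 0.09 (SE, edgeR adjusted p = 9.47e-07), at 72 h against 0 h it was 0.16 ± 0.09 (edgeR adjusted p = 0.325) and at 72 h against 24 h it was -0.61 ± 0.08 (edgeR adjusted p = 5.98e-06). It was the member called higher at 24 h against 0 h, where 17.4% of all features were called higher, and the member called lower at 72 h against 24 h, where 17.7% were. A single contig carried 69.1% of the counts on the contigs with the cyclin hit. It averaged 115, 115, 184 and 126 normalized counts at 0, 6, 24 and 72 h. The contigs with the cyclin hit carried 97.5% of the component's counts, and its other contigs had no Arabidopsis hit.

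The smallest component was comp78653_c0, the contig with the weak hit to CYCB1;2. It averaged 8.44 ± 5.8 normalized counts in 0 h buds (SD, n = 3), 10.1 ± 2.9 in 6 h buds, 11.7 ± 4.2 in 24 h buds and 24.3 ± 6.6 in 72 h buds (n = 4 each). In the 72 h libraries it had 17.7, 21.1, 25.5 and 33.1 normalized counts, against 6.5, 14.9 and 3.9 in the 0 h libraries, without overlap. The log2 fold change at 72 h against 0 h was 1.70 ± 0.41 (SE, edgeR adjusted p = 0.00914), and the call was lost without 0 h replicate 3 (edgeR adjusted p = 0.0841). At 72 h against 24 h it was 0.95 ± 0.32 (edgeR adjusted p = 0.0263), and the call was lost without 24 h replicate 3 or 4 or 72 h replicate 3 or 4 (edgeR adjusted p of 0.074, 0.0578, 0.0589 and 0.0784). It was not called at 24 h against 0 h (log2 fold change 0.76 ± 0.40, edgeR adjusted p = 0.155), but was without 0 h replicate 2 (edgeR adjusted p = 0.0322).

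Counted over the members, 2 of 7 were higher at 6 h against 0 h, where 6.38% of all features were called higher. These were comp112579_c0, which kept its call under all alternatives, and comp135865_c1, with a log2 fold change of 0.33 ± 0.09 (SE, edgeR adjusted p = 0.0201). The call of comp135865_c1 was lost without 0 h replicate 1 or 3 or 6 h replicate 1 or 2 (edgeR adjusted p of 0.072, 0.0558, 0.0625 and 0.0504) and without a filter on low counts (0.186). Just outside the threshold were comp103914_c0 (0.75 ± 0.25, edgeR adjusted p = 0.0514) and the CYCB2 component (0.61 ± 0.21, edgeR adjusted p = 0.0624). The first was called without 0 h replicate 1 or 6 h replicate 3 (edgeR adjusted p of 0.0133 both times), and the second without 0 h replicate 2 or 6 h replicate 3 (edgeR adjusted p of 0.00887 and 0.0279). The first was also called under DESeq2 (adjusted p = 0.0474) and by edgeR without a filter, with the stricter filter and with whole component counts (adjusted p of 0.0078, 0.0426 and 0.0319), and the second by edgeR without a filter and with whole component counts (adjusted p of 0.000739 and 0.0391). The median log2 fold change was 0.47 over the 7 members and 0.00 over all features.

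At 72 h against 0 h, 6 of 7 members were called higher, where 5.61% of all features were, and the median log2 fold change was 1.27 over the members against 0.03 over all features. At 72 h against 24 h, 6 of 7 were called higher (19.4% of all features), and the medians were 1.21 and -0.07. At 72 h against 6 h, 6 of 7 were called higher (8.37% of all features), with log2 fold changes of 0.65 to 1.23. In this last comparison the call of comp103914_c0 was lost without 72 h replicate 2 (edgeR adjusted p = 0.0568). That of the CYCB2 component was lost without 6 h replicate 3 or 72 h replicate 2 or 4 (edgeR adjusted p of 0.0567, 0.067 and 0.0656). That of comp78653_c0 was lost without 6 h replicate 1 or 2 or 72 h replicate 3 or 4 (edgeR adjusted p of 0.0693, 0.0668, 0.0515 and 0.0628).

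The members called lower at 24 h against 6 h were 4 of 7 (15.7% of all features): both kinases, comp112579_c0 and the CYCB2 component. The kinases had log2 fold changes of -1.40 ± 0.12 and -1.35 ± 0.15 (SE, edgeR adjusted p = 6.79e-08 and 1.05e-06 in the CDKB2 and CDKB1 components). Only comp135865_c1 was called higher (12.9% of all features), with a log2 fold change of 0.44 ± 0.08 (SE, edgeR adjusted p = 0.000255). The comparisons share libraries, so their calls are not separate evidence.

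The proportion of cyclin to kinase counts differed between time points. Because contig lengths are not taken into account, only the change of a ratio between libraries can be read. The ratio of the summed counts of the 4 cyclin components other than comp135865_c1 to the summed counts of the 2 kinase components averaged 0.605 ± 0.083 in 0 h buds (SD, n = 3), 0.961 ± 0.088 in 6 h buds, 1.70 ± 0.24 in 24 h buds and 0.975 ± 0.078 in 72 h buds (n = 4 each). The lowest 24 h library (1.43) lay above the highest library of any other time point (1.07). The ratio of the CDKB2 to the CDKB1 component stayed between 1.35 and 1.72 in all 15 libraries, with means of 1.53, 1.52, 1.48 and 1.62 at 0, 6, 24 and 72 h. The ratio of comp135865_c1 to comp103914_c0 averaged 4.84 ± 2.40 in 0 h buds, 3.62 ± 1.38 in 6 h buds, 5.69 ± 0.80 in 24 h buds and 1.70 ± 0.21 in 72 h buds (SD). These ratios describe components chosen with their values known and carry no test.

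**Figure D3:**
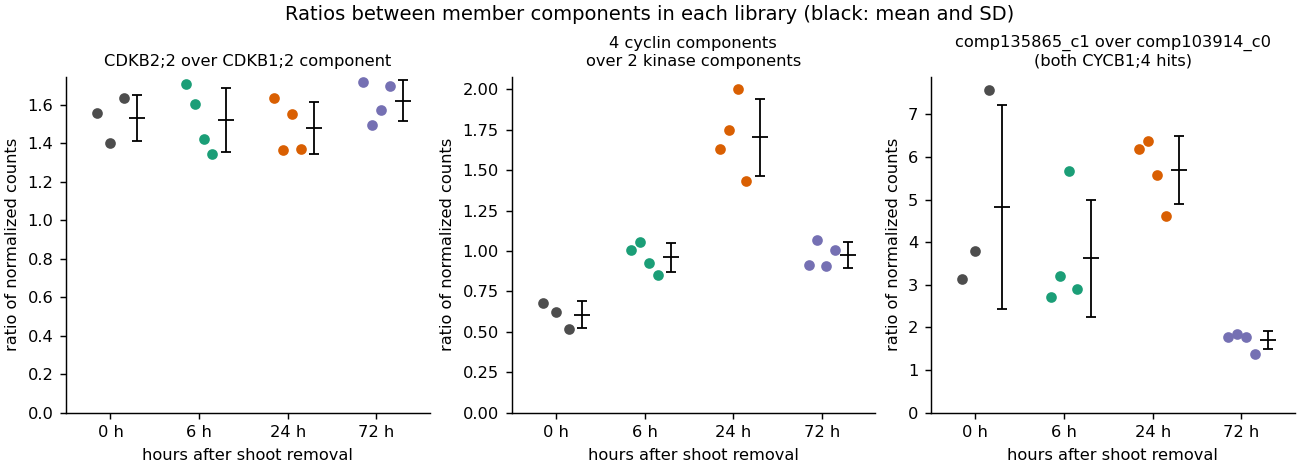
Ratios of normalized counts (vertical axes, from 0) in each library against the hours after shoot removal (0, 6, 24 and 72 h), with mean and SD in black (n = 3 at 0 h, n = 4 at other times). The cyclin to kinase ratio is highest at 24 h (mean 1.70), whereas the ratio between the kinase components varies little (1.35 to 1.72).

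Of the 0 h libraries, replicate 3 was the lowest in 6 of 7 components and replicate 2 the highest in 5 of 7. At 6 h, replicate 1 was the highest and replicate 3 the lowest in 5 of 7 each. At 24 h no replicate was highest or lowest in more than 3 of 7. The coefficient of variation at 0 h reached 39.4% in comp103914_c0, 39.6% in the CYCB2 component and 68.1% in comp78653_c0, and was 1.3% in comp135865_c1. Why these libraries differ was not tested.

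The other genes of the pathway were taken from lists chosen with earlier results of these data known, so their counts are no independent support. Over all features, 18.8% were called lower and 17.4% higher at 24 h against 0 h, and 5.61% higher at 72 h against 0 h. Of 11 A-type cyclin components, 8 were called lower and 2 higher at 24 h against 0 h, with a median log2 fold change of -1.01 against 0.03 over all features. Against 0 h, 5 of the 11 were higher at 72 h, with a median of 0.50. A-type cyclins act from S phase to early mitosis. The largest falls at 24 h were in the A3 class, led by comp127671_c0 (AT1G47230, log2 fold change -1.81 ± 0.53, edgeR adjusted p = 0.0101). That fall rests on low counts, with means of 6.89 normalized counts at 0 h and 1.57 at 24 h. The A3-class cyclin comp130850_c1 (AT1G47230) averaged 15.5 ± 3.8 normalized counts at 24 h, against 50.4 ± 14.1 at 0 h (SD, n = 4 and 3). The A1-class component comp135437_c0 (AT1G44110) was the A-type component called at 6 h against 0 h (log2 fold change 0.81 ± 0.16, edgeR adjusted p = 0.00197). It was also higher at 24 h, with 101 ± 6.7 normalized counts (SD, n = 4), a log2 fold change over 0 h of 1.61 ± 0.15 (SE, edgeR adjusted p = 9.89e-08). Components with this hit had unlike courses. The one with the most counts, comp137531_c0, averaged 141 normalized counts at 0 h, 76.6 at 24 h and 233 at 72 h. Its log2 fold change at 72 h against 0 h was 0.79 ± 0.19 (SE, edgeR adjusted p = 0.00876). The small component comp123998_c0 averaged 5.69 at 0 h and 13.8 at 24 h.

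Of the 2 tested components of other B-type cyclins, both were called higher at 72 h against 0 h. The component with the hit CYCB2;2 (comp130587_c0) averaged 98.8 normalized counts at 72 h, against 27.8 at 0 h, a log2 fold change of 1.93 ± 0.22 (SE, edgeR adjusted p = 5.7e-06). The component with the hit CYCB3;1 (comp123012_c0) averaged 114 at 72 h against 69.0 at 0 h (log2 fold change 0.77 ± 0.18, edgeR adjusted p = 0.00661). It had also fallen at 24 h, with 26.6 normalized counts against 69.0 at 0 h (log2 fold change -1.30 ± 0.19, edgeR adjusted p = 1.56e-05).

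D-type cyclins act at the entry into the cycle. Of 10 components 1 was higher and 2 were lower at 24 h against 0 h, and at 72 h against 0 h 4 of 10 were higher, led by comp99536_c0 (CYCD3;1 hit), with 129 normalized counts at 72 h against 45.6 at 0 h. Of the 6 components of other cyclin-dependent kinases and their partners, 1 was called higher at 24 h against 0 h, comp130101_c0 (hit CYCH;1, partner of the kinase that activates others), with a log2 fold change of 0.48 ± 0.13 (SE, edgeR adjusted p = 0.00601). Of 4 inhibitor components 2 were lower at 24 h against 0 h, comp125454_c0 (hit KRP3) with -0.72 ± 0.13 and comp137317_c0 (hit WEE1, a kinase that restrains the cycle) with -0.37 ± 0.12 (SE, edgeR adjusted p = 0.000174 and 0.0159).

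Among the regulators, 8 of 12 MYB3R and E2F components were lower at 24 h against 0 h, with a median log2 fold change of -0.82. The largest falls were in comp116104_c0 (hit E2FC, -2.44 ± 0.50, edgeR adjusted p = 0.00066) and comp120017_c1 (hit E2FB, -1.57 ± 0.24, edgeR adjusted p = 2.65e-05), hits to regulators of entry into S phase. Counts of comp116104_c0 were low, with means of 11.6 at 0 h and 2.15 at 24 h. The component with the hit MYB3R1, a regulator of G2 to mitosis genes in Arabidopsis (comp124257_c0), averaged 80.9 normalized counts at 24 h against 185 at 0 h (log2 fold change -1.18 ± 0.16, edgeR adjusted p = 6.21e-06). It averaged 287 at 72 h, a log2 fold change of 0.68 ± 0.15 over 0 h (edgeR adjusted p = 0.00565). Of 9 components of APC/C activators and inhibitors, which govern the destruction of B-type cyclins, 4 were higher at 72 h against 0 h, with a median log2 fold change of 0.66. The largest rise was in comp103875_c1 (hit CDC20.1), with 27.8 normalized counts at 72 h against 9.17 at 0 h (log2 fold change 1.73 ± 0.36, edgeR adjusted p = 0.00318). The activator comp125831_c0 (hit CCS52B) averaged 189.9 at 72 h against 70.7 at 0 h (log2 fold change 1.46 ± 0.16, edgeR adjusted p = 4.81e-06), and comp102330_c0 (hit CDC20.1) 106 against 35.9 (1.56 ± 0.22, edgeR adjusted p = 7.68e-05). Other components with these hits were not called. The CDC20.1 component with the most counts, comp135019_c0, averaged 1337 at 72 h against 1359 at 0 h (edgeR adjusted p = 0.901). For comp124538_c0 (hit CDC20.1) the means were 9.49 and 9.48, and for comp133039_c0 (hit CCS52B) 52.9 and 60.7 (edgeR adjusted p of 0.721 and 0.488).

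Of 31 spindle, checkpoint and chromosome components, 13 were lower and 3 higher at 24 h against 0 h, and 12 were higher at 72 h against 0 h. Their median log2 fold change was -0.78 at 24 h and 0.60 at 72 h. At 72 h the checkpoint component comp105650_c0 (hit MAD2) rose by a log2 fold change of 1.77 ± 0.20 over 0 h (SE, edgeR adjusted p = 6.34e-06). Of 16 cytokinesis components 11 were lower and 1 higher at 24 h, and 11 were higher at 72 h, with medians of -0.61 and 0.73. They were led at 72 h by the syntaxin of the cell plate, comp122314_c0 (hit KNOLLE), with 273 normalized counts at 72 h against 103 at 0 h (log2 fold change 1.48 ± 0.17, edgeR adjusted p = 9.21e-06). Of 22 DNA replication components, 15 were lower and 3 higher at 24 h, while 3 were higher at 72 h. Their median log2 fold change was -1.63 at 24 h and 0.32 at 72 h. The ribonucleotide reductase component comp127087_c0 (hit TSO2) averaged 72.5 normalized counts at 24 h against 433 at 0 h (log2 fold change -2.57 ± 0.19, edgeR adjusted p = 3.29e-09).

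**Figure D4:**
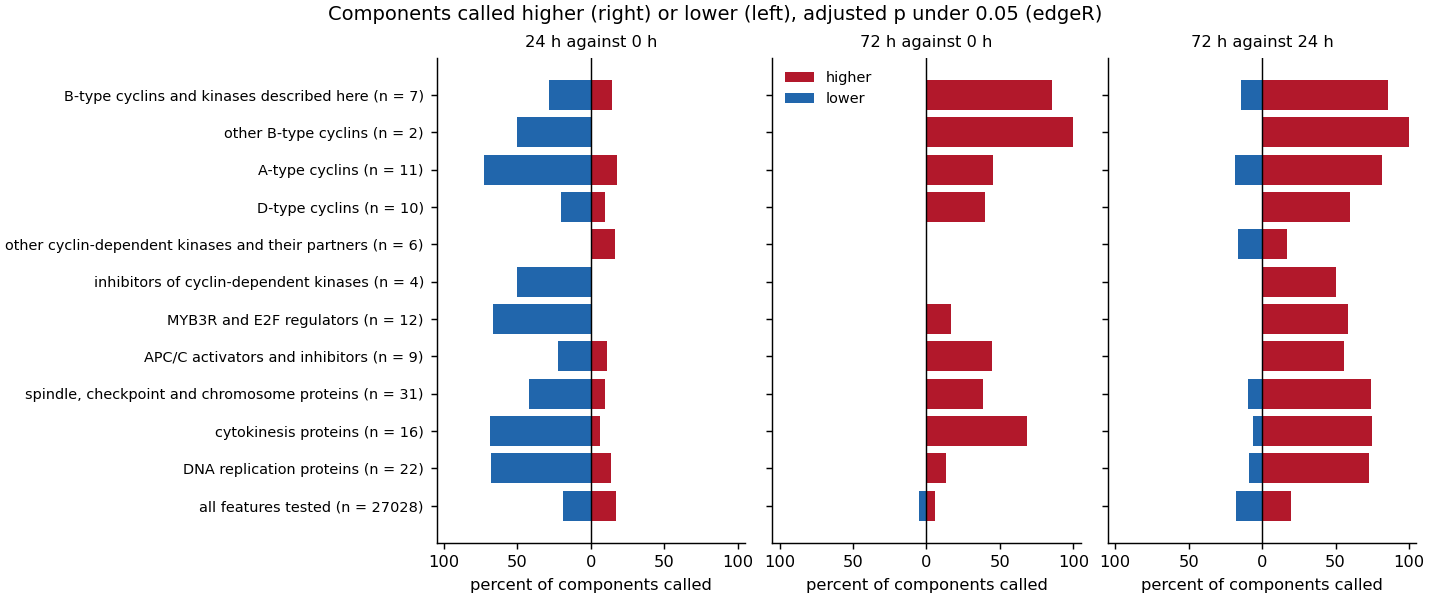
Percent of tested components called higher (to the right) or lower (to the left) by edgeR in each list and over all features, at 24 h and 72 h against 0 h and at 72 h against 24 h. The n in the row names is the number of components tested. Among the 7 members 6 are called higher at 72 h against 0 h, where 5.61% of all features are.

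The features whose course was most like the mean standardized course of the 7 members were found by Pearson's r of log2(normalized count + 1) over the 15 libraries. These points share libraries and time points, so r is a description. The highest r was 0.985 for comp134853_c0 (hit AT1G16630), followed by 0.971 for comp133623_c0 (AT2G22610, a kinesin in Arabidopsis), 0.965 for comp130587_c0 (AT4G35620, CYCB2;2), 0.964 for comp104795_c0 (AT5G36800) and 0.964 for comp112431_c1 (AT5G44560). Among the members, r with that mean course was 0.978 in the CYCB2 component and 0.972 in comp112579_c0, 0.765 and 0.762 in the CDKB2 and CDKB1 components, and -0.33 in comp135865_c1. Each member is itself part of that mean, which raises its r, so these values are not comparable with those of the other features.

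The summed normalized counts of the 12 shoot meristem and young leaf markers also differed between time points, at 3215 to 3441 in 0 h libraries, 3116 to 3564 in 6 h libraries, 2917 to 3514 in 24 h libraries and 3754 to 3946 in 72 h libraries. The 5 root meristem markers summed to 329 to 381 in 0 h libraries, 299.9 to 339 in 6 h libraries, 243 to 331 in 24 h libraries and 387 to 436 in 72 h libraries. The 8 vascular markers summed to 1432 to 1623 in 0 h libraries, 1915 to 2240 in 6 h libraries, 1320 to 1766 in 24 h libraries and 1378 to 1727 in 72 h libraries. Both the shoot and the root meristem sum were highest at 72 h, without overlap. The root sum came almost wholly from SCR and SHR, which averaged 261 and 149 in 72 h buds against 225 and 129 in 0 h buds. PLT2 was not higher, at 2.61 against 2.88, and PLT1 and WOX5 had no counts at either time point. Among the shoot markers YAB3 averaged 1047 in 72 h buds against 781 in 0 h buds and ANT 682 against 509, while STM, AS1 and CUC3 were not higher. The vascular sum was highest at 6 h through SUC2, with 1690 in 6 h buds against 969 in 0 h buds, while the means of the other 7 vascular markers were not higher at 6 h than at 0 h. The part of these tissues in the changes of the members was not tested.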

How the data were processed

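Buds of 15 libraries were sequenced as directional paired-end poly A+ libraries. The authors used Sickle to trim reads, Trinity to assemble them with further reads of the species, BLASTX to annotate the contigs, and RSEM to count, with an option that takes reads of 1 strand. The deposited values are expected counts per contig and per component, estimated and not normalized. The table also holds the authors' posterior probabilities of differential expression, which were not used.

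Here expected counts were summed per component and Arabidopsis hit (all member hits of a component together), divided by median-of-ratios size factors from the component columns, and kept at a mean above 5 at any time point, which left 27028 of 253691 sums. A component may join contigs of different genes. Sums were rounded and tested with edgeR 4.0.16 (quasi-likelihood, all 15 libraries, 4 groups) in R 4.3.3, with Benjamini-Hochberg adjustment over all sums of a comparison and a threshold of 0.05. The SE is the log2 fold change divided by the square root of F. The script was tested on simulated data. Alternatives were TMM scaling, DESeq2 1.42.0, limma 3.58.1 on log2(normalized count + 1), no filter, a filter above 10 in all libraries of any time point, whole component counts, components with at least 50% of counts on member contigs, only the groups compared, at least 1.5-fold, a replicate block and leaving out each library. Figures used matplotlib 3.10.9 in Python 3.11.15.

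Every member that passed was named. From other lists, components were named from among the 3 with the largest change of those called in a comparison. Beside some of them, further components with the same hit were named. The members and lists were chosen with earlier results of these data known. Replicates are separate pools of plants. The lowest depth was 1847115 expected counts (72 h replicate 4), and common variation between replicates was 11.2% (edgeR's biological coefficient of variation). Floors cover counting error only.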

Additional observations from a re-analysis of the deposited data

How the results depend on the processing

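Over the 6 pairwise comparisons, the members' log2 fold changes were compared under 25 alternatives, giving 1050 values. Of these, 999 kept their direction and their side of the threshold. Another 26 lost the call, 12 gained it and 13 changed sign, all 13 of them uncalled values. Not all of the 999 were free to change. All 7 components met the limit on the share of counts on member contigs, so it could alter none of their values. The limit of at least 1.5-fold kept the main log2 fold changes and could only remove calls. Some runs left out a library of a time point outside the comparison. The 999 therefore overstates how firmly the calls were tested. At 6 h against 0 h, leaving out 1 library gave log2 fold changes of -0.15 to 0.15 in comp100223_c0 and -0.19 to 0.21 in comp97692_c0. At 24 h against 0 h it gave -0.23 to 0.32 in comp107205_c0 and -0.17 to 0.17 in comp112579_c0, which was also at -0.0104 under TMM scaling and -0.0158 under limma. At 6 h against 0 h, 4 members were called with whole component counts and 1 with at least 1.5-fold, against 2 as reported, and 1 to 4 when 1 library was left out. At 24 h against 6 h, 3 were called with at least 1.5-fold, against 5. Leaving out 1 library gave 3 to 4 called members at 24 h against 0 h, 5 to 6 at 72 h against 0 h, 4 to 5 at 24 h against 6 h, 6 to 7 at 72 h against 24 h, 4 to 6 at 72 h against 6 h and 7 to 7 over all 4 time points. The causes of these shifts were not tested. With the replicate number as a block (replicate block), 2, 3, 6, 5, 7 and 6 members were called at 6 h, 24 h and 72 h against 0 h, 24 h against 6 h, 72 h against 24 h and 72 h against 6 h, as without it. Deviations of libraries with the same number correlated at -0.02 to 0.13 (1 of 21 pairs above 0.1), against -0.11 to 0.06 for unlike numbers. Of 15 libraries, 11 correlated best with a library of their own number, so libraries with the same number were somewhat alike. Over all features, 3825 were called at 6 h against 0 h with the block and 3316 without it. The main test left the number out. Low counts limit comp78653_c0 most, at 3.9 to 14.9 normalized counts in the 0 h libraries.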
